A study of Mus musculus with 10 samples.

Results

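Lung mRNA of mice was compared between 4 libraries titled Hy and 3 titled C. The comparison covered the 17465 genes with a value in all 7 libraries, out of 19204 genes with a value in any of the 10 libraries of the series. The remaining 3 libraries, titled HE, entered the filter on low counts, the scaling factors and the estimate of the spread. In some added fits, described below, they also bore on the fold change of Hy over C. The series title names wild-type mice, mice made hypertensive in the lung circulation by hypoxia, and exercised mice with the same disease, but no label spells out the prefixes. Hy is read here as hypoxic and C as control. All 10 libraries carry the genotype WT and the same treatment text, and neither strain, age, oxygen level nor duration is stated in them. Whether each library is a different mouse is not stated, and p-values here reflect the spread among libraries, which may be technical.

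Chronic hypoxia makes small pulmonary arteries constrict and then remodel, with more contractile smooth muscle in their walls and a loaded right heart. Bone morphogenetic protein (BMP) receptors restrain growth of vessel wall cells, and loss of the receptor BMPR2 is the best known inherited cause of pulmonary hypertension. Low oxygen also stabilises the hypoxia-inducible factors (HIF), which raise glucose uptake, glycolysis and angiogenic signals in cultured cells. Chaperones, the ribosome and the respiratory chain are the large housekeeping programmes that such stress can reach.

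The libraries held from 16560649 (C1) to 17366016 (Hy4) estimated counts. Markers of lung were abundant in all 7, with Sftpb, a surfactant protein of alveolar type 2 cells, at 4140.3 to 8826 CPM (estimated counts scaled to library size with TMM factors) and Pecam1, an endothelial adhesion protein, at 950.1 to 1272 CPM. Cardiomyocyte genes summed to 1921, 51.8 and 190.0 CPM in C1 to C3 and to 721, 224, 159 and 2681 CPM in Hy1 to Hy4, and were highest in C1 and Hy4. Group means are given ± SD throughout. The globin gene Hba-a1 stood at 31188 CPM in Hy3 against 559 to 7081 CPM in the other 6. On the first principal component (39.3% of the variance) the C libraries lay between -67.4 and -46.1, Hy3 at -2.65 and the other Hy libraries between 19.6 and 54.7.

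C was tabulated with another gene set. The C files held values for 18713 genes and the Hy files for 17956. Of these, 1248 were valued in C alone and took 0.0101% to 0.0120% of C counts, and 491 were valued in Hy and HE alone and took 0.110% to 0.179% of Hy counts. The gene set coincides with the group in every library, so its part in any difference between C and Hy cannot be told apart from the condition.

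Among the 14766 genes that passed the filter on low counts, 26.1% were called at an edgeR adjusted p below 0.05, 2225 higher in Hy (15.1%) and 1625 lower (11%). Each C library mattered to these counts: without C1, C2 or C3 they were 1144 and 828, 1074 and 607, and 1023 and 667. Without Hy2 they were 1673 and 1064, without Hy4 1513 and 945, and without Hy3 3175 and 2798. A call is therefore described as held where the gene also passed in the same direction in 15 other fits: without each of the 10 libraries in turn, with the replicate number as a block, with DESeq2, with limma-voom, with RLE factors, and with only the C and Hy libraries. Held calls made up 8.75% of tested genes, 843 higher (5.71%) and 449 lower (3.04%). The block alone gave 1112 higher (7.53%) and 633 lower (4.29%). In 33.6% of tested genes the C and Hy libraries did not overlap. The rule for held calls favours such genes, so groups apart in a named gene below are not separate support.

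Fold changes followed the base composition of transcripts. In the decile of genes with the lowest GC content the median log2 fold change was -0.42, with 2.88% of genes called higher and 32.2% called lower. In the decile with the highest GC content it was 0.65, with 51.7% called higher and 0.891% called lower. The contrast between the highest and the lowest decile within a library was -0.63, -0.73 and -0.66 in C1 to C3 (log2(CPM + 1), median deviation from the mean of all libraries). It was 0.33, 0.26, -0.066 and 0.65 in Hy1 to Hy4 and 0.16 to 0.36 in HE, so no C library overlapped any Hy or HE library and Hy3 lay closest to C. Transcript length moved as well, with a median log2 fold change of 0.37 in the shortest decile and -0.20 in the longest. Hy libraries did not share this trend. The contrast between the longest and the shortest decile was 0.28, 0.41 and 0.41 in C1 to C3. It was -0.48, -0.30, 0.67 and -0.37 in Hy1 to Hy4, so Hy3 lay beyond C, away from the other Hy libraries. All genes together had a median of 0.032. An added fit that takes out each library's trend with GC content and length, termed the GC correction below, called 986 genes higher (6.76%) and 979 lower (6.71%) of 14589 with a known transcript. It kept 1402 of the 3850 calls and 795 of the 1292 held calls. A change in the cells that follows base composition is removed by this fit along with any technical trend, so named genes and lists are given with and without it. Of the 98 named genes with a held call, 81 passed with the correction and the 17 that did not are named as such below. Without C1, Hy4 and HE3 together, a fit with few libraries, 36 of these 98 calls passed.

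**Figure D1:**
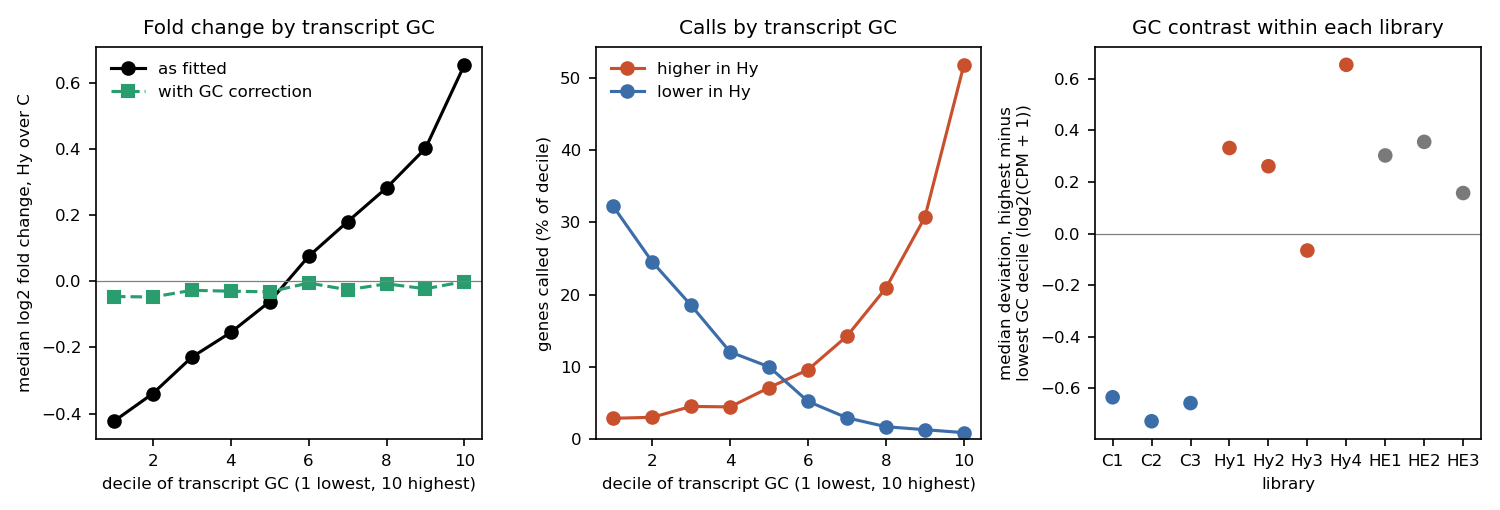
Left, median log2 fold change of Hy over C in deciles of transcript GC content, as fitted (circles, from -0.42 to 0.65) and with the GC correction (squares). Middle, percentage of each decile called higher or lower in Hy. Right, the contrast between the highest and the lowest GC decile in each library (blue C, orange Hy, grey HE), where the 3 C libraries lie below every other library.

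The programmes are described through 76 gene lists with 1300 tested members. A gene can stand in several lists, so list counts are not all separate. A held share near 5.71% higher or 3.04% lower is no more than in all genes. Held shares also followed GC content. In the lowest GC decile 1.51% of genes held higher and 10.6% lower, and in the highest 24.7% and 0.411%. For calls at the adjusted p alone, the shares of all genes were 15.1% higher and 11% lower. With the GC correction they were 6.76% and 6.71%, and under the block 7.53% and 4.29%. Held members counted 6 of 16 higher in the smooth muscle list, 6 of 23 higher in the immediate early list, 4 of 23 lower in the HIF target list, 3 of 13 lower in the chaperonin list and 4 of 27 lower in the chaperone list. In 36 lists no call held. List counts at the adjusted p alone depended on single libraries. Of the 105 counts above 0, taken per list and direction, 98 moved by more than 1.5 times in at least 1 fit that left out a library.

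**Figure D2:**
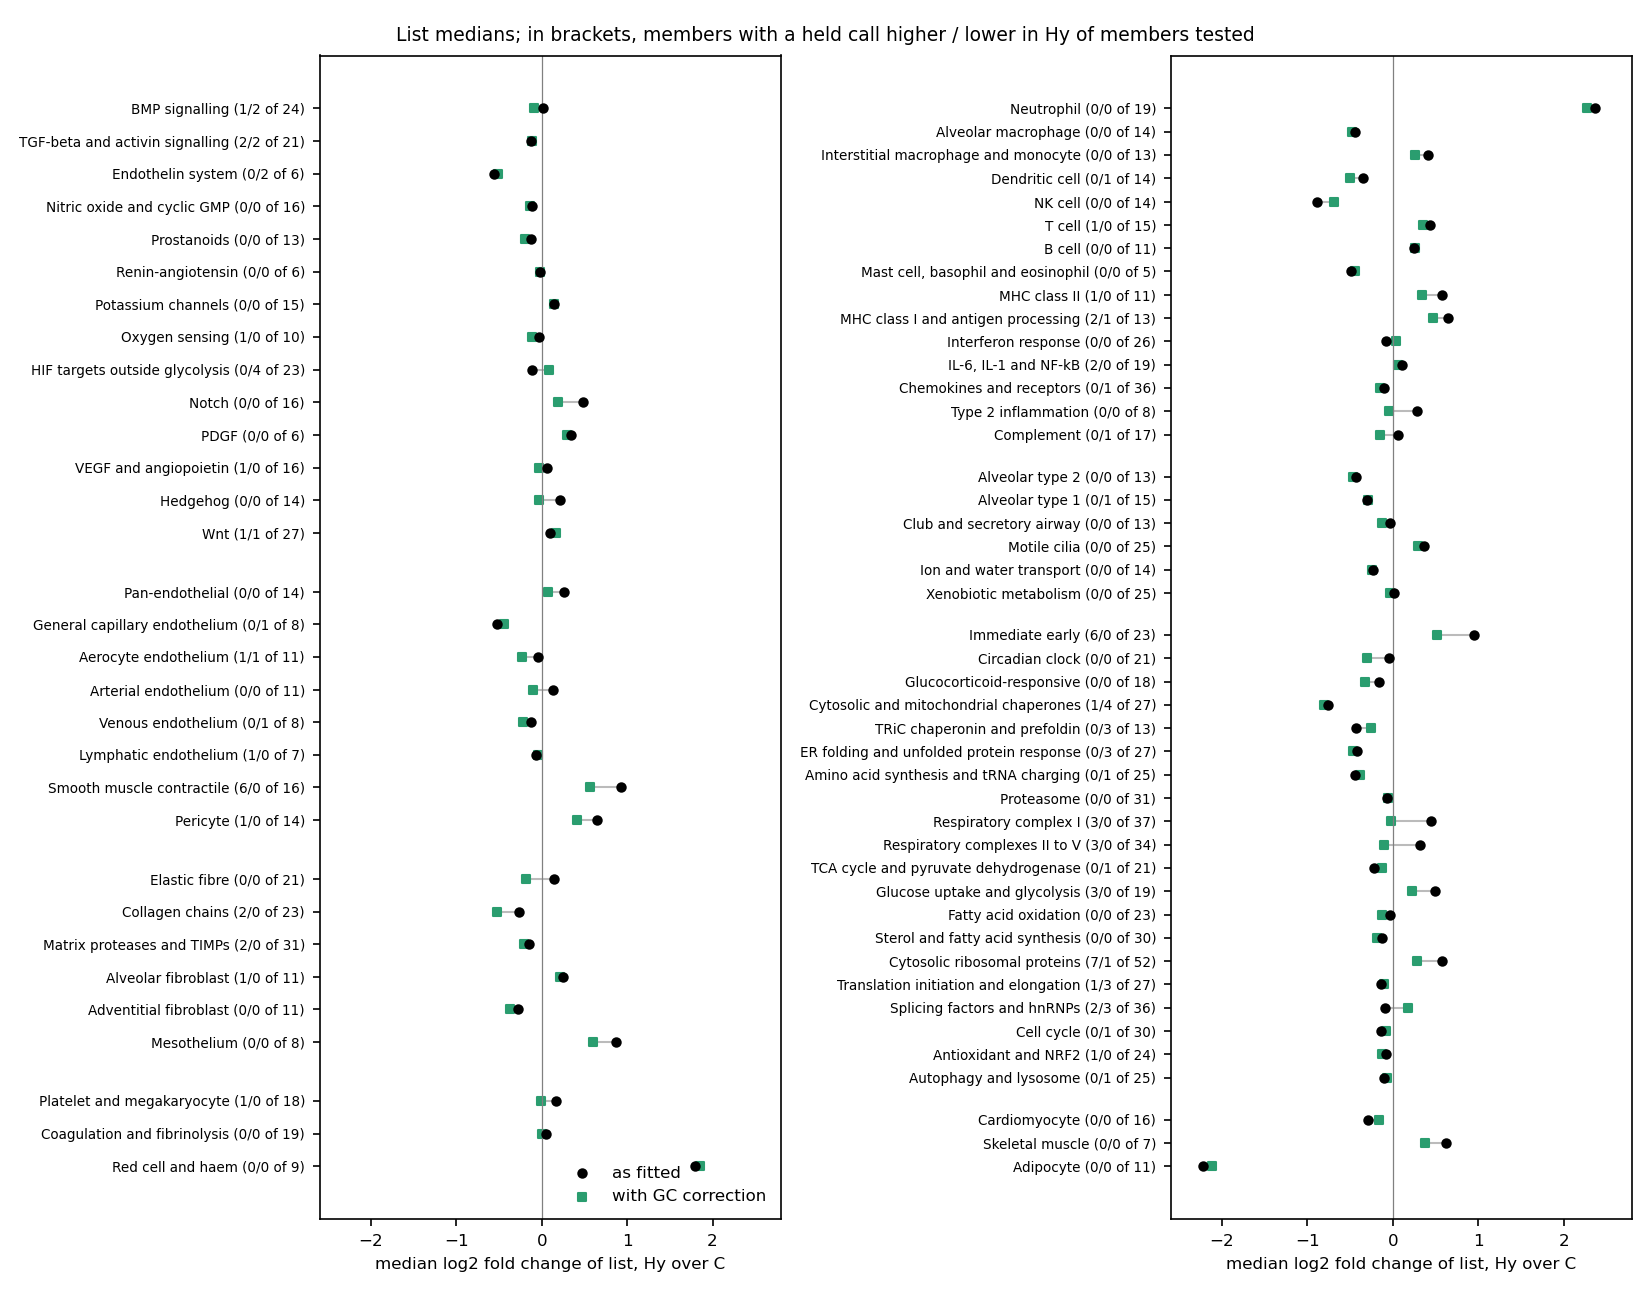
Median log2 fold change of Hy over C over the tested members of each list with at least 5 of them, as fitted (circles) and with the GC correction (squares), with held calls higher and lower in brackets. The neutrophil list had the highest median (2.37, no held call) and the adipocyte list the lowest (-2.22, no held call), while respiratory complex I moved from 0.45 to -0.02 with the correction.

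In the glucose uptake and glycolysis list the held calls were higher in Hy, and in the list named HIF targets outside glycolysis they were lower. The second list includes Pfkfb3, which regulates glycolysis. Held calls of genes that act in glycolysis therefore went both ways. The difference between both lists was not tested. Of 19 glucose uptake and glycolysis genes, 9 rose, 9 did not pass and Hk2, a hexokinase, fell. The calls of 3 held, all higher, with 4 higher under the block and 5 higher and 1 lower with the GC correction. With C2 or C3 left out 3 rose, and with Hy4 left out 5. Slc16a3 encodes MCT4, the exporter of lactate, and stood at 8.25, 5.07 and 5.51 CPM in C1 to C3 and 15.5, 32.6, 22.97 and 28.8 CPM in Hy1 to Hy4 (log2 fold change 1.99, SE 0.28, adjusted p = 0.00193, and 1.63 with the correction). Aldoa, the aldolase of glycolysis, stood at 477, 408 and 413 CPM in C1 to C3 and 701, 1080.1, 917 and 1049 CPM in Hy1 to Hy4 (log2 fold change 1.11, SE 0.17, adjusted p = 0.00258, and 0.68 with the correction). Slc2a1, which encodes the glucose transporter GLUT1, differed by a log2 fold change of 0.95 (SE 0.19, adjusted p = 0.00756, and 0.70 with the correction). In all 3 genes every Hy library was above every C library. Of 10 oxygen sensing genes 1 rose and 2 fell, and 0 passed with the correction. Those that fell were Vhl and Hif1a, which encodes HIF-1 alpha, and neither call held. Egln2, a prolyl hydroxylase that marks HIF for destruction, was called and held higher (log2 fold change 0.74, SE 0.14, adjusted p = 0.00662, and -0.074 with the correction at adjusted p = 0.593), so its direction turned with the correction. Hif1an, the asparaginyl hydroxylase FIH, and Epas1, which encodes HIF-2 alpha, did not pass in any fit, with log2 fold changes of 0.027 and 0.51 (-0.024 and 0.38 with the correction).

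Of 23 HIF targets outside glycolysis, 3 rose (Adm, Ankrd37 and Mxi1, none held) and 5 fell, and the 4 calls that held were lower. Fold changes were positive in 11 members and negative in 12. The GC correction gave 2 higher and 4 lower, and without C2 or C3 no gene of the list rose. Plod2 and P4ha1 modify collagen chains, by lysyl and prolyl hydroxylation. Plod2 stood at 107, 96.3 and 94.4 CPM in C1 to C3 and 48.8, 37.7, 55.5 and 34.0 CPM in Hy1 to Hy4 (log2 fold change -1.18, SE 0.16, adjusted p = 0.00167, and -0.91 with the correction) and P4ha1 at 209.8, 279 and 234 CPM in C1 to C3 and 101, 117, 95.4 and 72.2 CPM in Hy1 to Hy4 (log2 fold change -1.32, SE 0.27, adjusted p = 0.00756, and -1.13 with the correction). Both were lower in every Hy library than in any C library. Pfkfb3, the enzyme that makes the activator of phosphofructokinase, stood at 175, 174 and 166 CPM in C1 to C3 and 72.7, 89.0, 97.4 and 61.5 CPM in Hy1 to Hy4 (log2 fold change -1.10, SE 0.15, adjusted p = 0.00174, and -1.10 with the correction). Tfrc, the transferrin receptor, fell from 53.7 ± 3.57 (C, n = 3) to 31.3 ± 6.71 CPM (Hy, n = 4) (log2 fold change -0.78, SE 0.17, adjusted p = 0.00981, and -0.40 with the correction at adjusted p = 0.0872), a call lost with the correction. Vegfa, the main growth factor of blood vessels and a HIF target in many cells, did not pass in any fit (log2 fold change 0.17, SE 0.13, adjusted p = 0.361, and 0.10 with the correction). Slc16a3, Slc2a1, Plod2 and Pfkfb3 overlap another annotated gene, so their counts are uncertain, since the labels do not state whether strand was kept.

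The promoters of Slc16a3, Aldoa, Slc2a1, P4ha1, Pfkfb3 and Tfrc are shown because these held members, which include genes that rose and genes that fell, carry the core of the hypoxia response element. The held member Plod2 is not shown. Aldoa has 3 promoters in the set searched, and Pfkfb3 and Tfrc have 2 each. Of these the first with a match is shown, so another promoter of the gene may lack it. The letters ACGTG were searched on both strands in the 250 bases before each RefSeq start on GRCm38.p6, and also match within the E-box CACGTG. They were found in 16.6% of 32851 promoters and 18.5% of 27025 genes, in 9 of 18 glycolysis genes and in 11 of 16 HIF targets with a promoter. A match is a description of the letters only. Capitals mark the match, and each sequence runs from 5′ to 3′ on the strand of its gene.
Slc16a3 (chr11:120948817-120949066, plus strand): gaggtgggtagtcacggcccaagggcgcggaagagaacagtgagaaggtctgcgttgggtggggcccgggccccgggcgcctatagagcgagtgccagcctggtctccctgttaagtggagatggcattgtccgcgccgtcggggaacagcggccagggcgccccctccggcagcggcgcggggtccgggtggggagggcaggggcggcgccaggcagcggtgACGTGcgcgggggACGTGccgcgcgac
Aldoa (chr7:126799255-126799504, minus strand): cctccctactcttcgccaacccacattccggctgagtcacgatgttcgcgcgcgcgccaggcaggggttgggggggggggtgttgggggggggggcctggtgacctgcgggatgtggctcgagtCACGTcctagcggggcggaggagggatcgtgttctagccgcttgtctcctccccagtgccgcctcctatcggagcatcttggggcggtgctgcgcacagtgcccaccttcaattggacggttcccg
Slc2a1 (chr4:119108495-119108744, plus strand): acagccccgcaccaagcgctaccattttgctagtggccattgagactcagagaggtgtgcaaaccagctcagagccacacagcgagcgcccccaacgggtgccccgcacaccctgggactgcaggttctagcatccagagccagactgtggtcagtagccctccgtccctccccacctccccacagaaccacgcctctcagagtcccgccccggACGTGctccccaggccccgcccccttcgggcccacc
P4ha1 (chr10:59323046-59323295, plus strand): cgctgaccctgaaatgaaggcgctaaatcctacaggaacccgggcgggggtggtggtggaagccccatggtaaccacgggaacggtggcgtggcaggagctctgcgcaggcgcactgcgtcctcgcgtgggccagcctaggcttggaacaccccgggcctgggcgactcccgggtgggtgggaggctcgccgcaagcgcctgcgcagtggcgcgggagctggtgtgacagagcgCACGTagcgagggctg
Pfkfb3 (chr2:11553930-11554179, minus strand): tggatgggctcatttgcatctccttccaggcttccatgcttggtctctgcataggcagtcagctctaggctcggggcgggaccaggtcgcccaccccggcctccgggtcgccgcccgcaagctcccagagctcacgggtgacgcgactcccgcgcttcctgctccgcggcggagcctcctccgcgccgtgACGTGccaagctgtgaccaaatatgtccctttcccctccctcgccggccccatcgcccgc
Tfrc (chr16:32608872-32609121, plus strand): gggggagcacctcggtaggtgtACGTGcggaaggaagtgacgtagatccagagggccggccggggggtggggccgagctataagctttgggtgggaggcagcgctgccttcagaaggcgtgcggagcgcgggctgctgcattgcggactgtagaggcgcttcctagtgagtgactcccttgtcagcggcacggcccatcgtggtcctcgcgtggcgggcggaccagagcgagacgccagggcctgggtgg

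The receptors of the BMP, TGF-beta and activin pathways fell or rose one by one rather than as lists. Of 24 BMP genes, 3 rose and 3 fell (held 1 and 2, and 1 and 2 with the GC correction). Bmpr2, whose product pairs with type I receptors, stood at 597, 803 and 735 CPM in C1 to C3 and 289, 329, 465 and 288 CPM in Hy1 to Hy4 (log2 fold change -1.05, SE 0.19, adjusted p = 0.00537, and -0.65 with the correction). Bmpr1a, such a type I receptor, stood at 107, 109.8 and 90.7 CPM in C1 to C3 and 58.2, 46.1, 69.0 and 49.0 CPM in Hy1 to Hy4 (log2 fold change -0.89, SE 0.16, adjusted p = 0.00453, and -0.52 with the correction). In both genes the highest Hy library was Hy3, still below the lowest C library. Id3, a target of BMP signalling that blocks differentiation factors, moved the other way, at 90.7, 127 and 119.6 CPM in C1 to C3 and 237, 379, 167 and 315 CPM in Hy1 to Hy4 (log2 fold change 1.29, SE 0.26, adjusted p = 0.00717, and 0.82 with the correction). The endothelial receptors Acvrl1 and Eng, mutated in hereditary haemorrhagic telangiectasia, did not pass in any fit (log2 fold changes 0.082 and -0.0057, and -0.30 and -0.45 with the correction).

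Of 21 TGF-beta and activin genes, 2 rose and 4 fell (held 2 and 2, and 1 and 3 with the GC correction). Acvr1b, the activin receptor ALK4, stood at 36.7, 43.6 and 41.0 CPM in C1 to C3 and 70.1, 76.6, 79.8 and 80.6 CPM in Hy1 to Hy4 (log2 fold change 0.92, SE 0.11, adjusted p = 0.00076, and 0.74 with the correction). Acvr2a, a type II activin receptor, stood at 43.0, 61.7 and 53.5 CPM in C1 to C3 and 23.3, 22.4, 34.1 and 17.4 CPM in Hy1 to Hy4 (log2 fold change -1.12, SE 0.21, adjusted p = 0.00576, and -0.73 with the correction). Neither gene's libraries overlapped between the groups. The type I receptor Tgfbr1 fell from 66.5 ± 3 (C, n = 3) to 34.3 ± 11.6 CPM (Hy, n = 4) (log2 fold change -0.96, SE 0.21, adjusted p = 0.0108, and -0.61 with the correction). Its ligand Tgfb1 rose from 124 ± 6.69 (C, n = 3) to 193 ± 24.0 CPM (Hy, n = 4) (log2 fold change 0.64, SE 0.13, adjusted p = 0.00701, and 0.48 with the correction at adjusted p = 0.0631), a call lost with the correction. Acvr1b, Acvr2a, Tgfbr1 and Eng overlap another gene.

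Among the signals that set vessel tone and growth, endothelin genes were lower where their calls held. Of 6 members 3 fell, 2 of them with held calls, the GC correction gave 0 higher and 2 lower, and all 6 fold changes were negative. Ednrb, the endothelial receptor that clears endothelin, stood at 124, 126 and 115 CPM in C1 to C3 and 60.1, 39.7, 43.3 and 59.2 CPM in Hy1 to Hy4 (log2 fold change -1.27, SE 0.28, adjusted p = 0.0118, and -0.99 with the correction at adjusted p = 0.054), so the call was lost with the correction. Ece2, an enzyme that cleaves the endothelin precursor, was low in Hy, at 3.85, 2.97 and 3.75 CPM in C1 to C3 and 0.418, 0.118, 0 and 0.485 CPM in Hy1 to Hy4 (log2 fold change -3.75, SE 0.64, adjusted p = 0.00408, and -3.81 with the correction). Both genes overlap another gene. Of 16 nitric oxide and cyclic GMP genes 4 rose and 3 fell (1 higher and 1 lower with the correction), and no call held. No call held either in the prostanoid (0 rose and 1 fell of 13), renin-angiotensin (1 and 2 of 6), potassium channel (2 and 1 of 15), PDGF (1 and 0 of 6) and hedgehog (2 and 1 of 14) lists, where the correction left 0 calls in the prostanoid, renin-angiotensin and PDGF lists and 1 higher and 1 lower in the potassium channel and the hedgehog list each. Of 16 Notch genes 7 rose and 2 fell, with no held call, and 2 rose with the GC correction. Without C2 the count that rose was 2, and without C1 or C3 it was 0.

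Pgf, placental growth factor, a relative of VEGF, stood at 3.12, 3.09 and 3.07 CPM in C1 to C3 and 5.61, 17.7, 11.3 and 15.2 CPM in Hy1 to Hy4 (log2 fold change 2.01, SE 0.36, adjusted p = 0.00504, and 1.63 with the correction), and every Hy library lay above the narrow range of C. It was the 1 held call of 16 VEGF and angiopoietin genes, of which 2 rose and 1 fell (1 higher and 2 lower with the correction). In the Wnt list of 27 genes, 6 rose and 3 fell with 1 held call each way and 2 higher and 2 lower with the correction. Axin2, a target and brake of Wnt signalling, rose from 22.97 ± 2.84 (C, n = 3) to 42.4 ± 10.1 CPM (Hy, n = 4) (log2 fold change 0.88, SE 0.19, adjusted p = 0.00969, and 0.64 with the correction). Lrp6, the Wnt co-receptor, fell from 119 ± 19.0 (C, n = 3) to 65.6 ± 12.2 CPM (Hy, n = 4) (log2 fold change -0.86, SE 0.15, adjusted p = 0.00476, and -0.62 with the correction) and overlaps another gene.

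**Figure D3:**
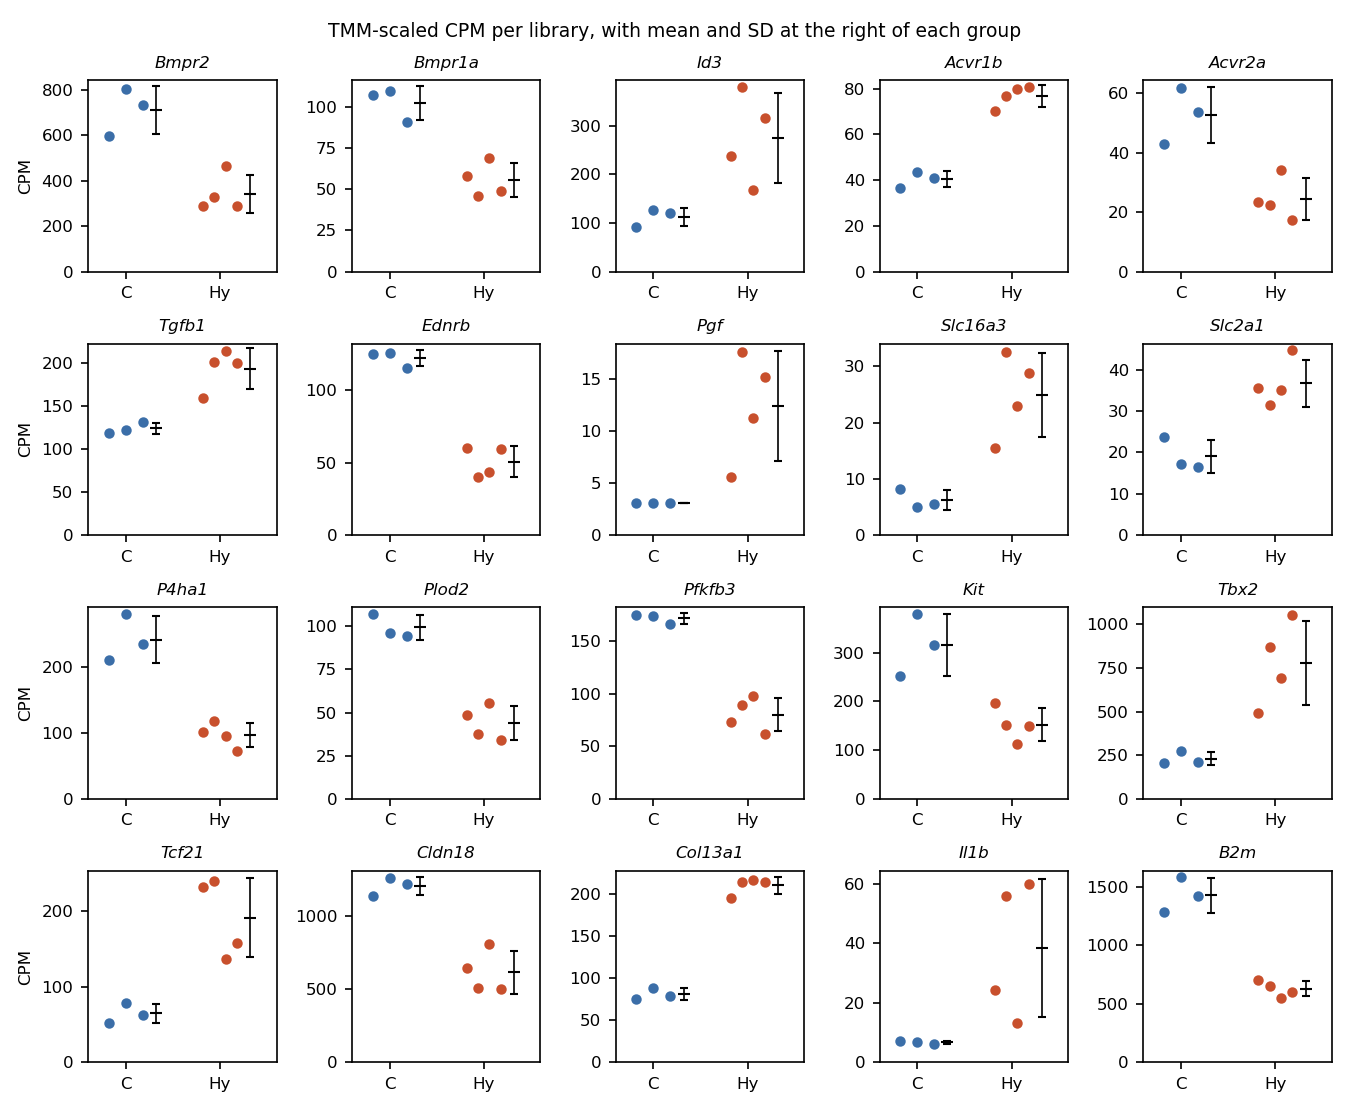
TMM-scaled CPM of 20 named genes in each C library (blue) and Hy library (orange), with mean and SD of each group in black and axes from 0. All 20 genes have held calls and groups that do not overlap, against 33.6% of all tested genes without overlap. Bmpr2, for example, stood at 597 to 803 CPM in C and 288 to 465 CPM in Hy.

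In the list of smooth muscle contractile genes every call was higher in Hy, and pan-endothelial genes gave no held call. In bulk lung, a change in the number of cells of a type and a change in RNA per cell cannot be told apart. Of 16 smooth muscle genes 9 rose and 7 did not pass. The calls of 6 held, 6 passed under the block and 7 with the GC correction, and the list median moved from 0.92 to 0.56 with the correction. Without C2, C3 or Hy4, 6 rose. Myh11, the smooth muscle myosin heavy chain, stood at 176, 94.4 and 105 CPM in C1 to C3 and 276, 361, 266 and 515 CPM in Hy1 to Hy4 (log2 fold change 1.50, SE 0.28, adjusted p = 0.00568, and 1.39 with the correction). Tpm2, a tropomyosin, stood at 66.6, 38.0 and 45.6 CPM in C1 to C3 and 155, 127, 98.1 and 206 CPM in Hy1 to Hy4 (log2 fold change 1.55, SE 0.26, adjusted p = 0.00391, and 1.22 with the correction). In both genes C1 was the highest C library and Hy4 the highest Hy library, as for the cardiomyocyte sum, and the part of heart tissue in the result was not tested. Without C1, Hy4 and HE3 together 5 of the 16 still passed. Lmod1, Myl9 and Tagln, also of the contractile apparatus, had log2 fold changes of 1.72, 1.48 and 1.08 (1.52, 0.93 and 0.88 with the correction). Smtn, smoothelin, rose with a held call (log2 fold change 0.91, SE 0.12, adjusted p = 0.00149) that was lost with the correction (0.28, adjusted p = 0.104). Tpm2, Tagln and Smtn overlap another gene. Of 14 pericyte genes 7 rose, 0 passed with the GC correction, and 1 call held, that of Cspg4, the proteoglycan NG2 (log2 fold change 1.25, adjusted p = 0.0109, and 0.73 with the correction at adjusted p = 0.0509). Without C1, C2 or C3 the count of risen pericyte genes was 1, 2 and 1, and without Hy4 it was 3. Of the risen pericyte genes, Pdgfrb also counts in the PDGF list and Kcnj8 in the potassium channel list. Notch3 and Heyl also count in the Notch list.

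Held calls of capillary genes went both ways. Kit, a receptor found on general capillary cells of the lung, stood at 252, 379 and 315 CPM in C1 to C3 and 196, 150.4, 113 and 149 CPM in Hy1 to Hy4 (log2 fold change -1.05, SE 0.19, adjusted p = 0.00543, and -0.93 with the correction), and was the 1 held call of the general capillary list. Of its 8 genes 3 fell, with 0 higher and 3 lower under the correction, 1 lower under the block, 1 lower without C2, C3 or Hy2, and 0 without C1, Hy4 and HE3 together or with the correction and the block. In the aerocyte list, of 11 genes, 2 rose and 2 fell (1 higher and 1 lower with the correction). Tbx2, a transcription factor, rose, at 204, 272 and 211 CPM in C1 to C3 and 491, 871, 695 and 1056 CPM in Hy1 to Hy4 (log2 fold change 1.76, SE 0.25, adjusted p = 0.00204, and 0.86 with the correction), while Ednrb fell as above. Car8, of the venous list, fell with a held call (log2 fold change -0.87, SE 0.17, adjusted p = 0.00623) that was lost with the correction (-0.56, adjusted p = 0.0638). Of 8 venous genes 1 rose and 1 fell (0 higher and 0 lower with the correction). Thy1, in the lymphatic list but also made by fibroblasts and T cells, rose from 18.3 ± 2.03 (C, n = 3) to 43.0 ± 14.5 CPM (Hy, n = 4) (log2 fold change 1.23, SE 0.23, adjusted p = 0.00543, and 0.85 with the correction), and 1 of 7 lymphatic genes rose and 1 fell (1 higher and 1 lower with the correction). The pan-endothelial list had 2 of 14 higher and the arterial list 1 higher and 2 lower of 11, with no held call (0 higher and 1 lower and 2 higher and 1 lower with the correction).

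Few matrix genes rose with held calls. Of 23 collagen chains, 2 rose with held calls and 4 fell (Col1a2, Col3a1, Col4a5 and Col5a2) with none held. With the GC correction 1 was higher and 4 lower, with the list median going from -0.27 to -0.53. Without C1, C2 or Hy2 no collagen fell, without C3 2, without Hy4 1, without Hy1 8 and without Hy3 7. Col13a1, a membrane collagen, stood at 75.8, 88.9 and 78.9 CPM in C1 to C3 and 196, 215, 218 and 214 CPM in Hy1 to Hy4 (log2 fold change 1.37, SE 0.16, adjusted p = 0.00076, and 0.81 with the correction). Col16a1 rose with a held call (log2 fold change 0.78, SE 0.13, adjusted p = 0.00405) that was lost with the correction (0.11, adjusted p = 0.67). Col1a1 and the elastin gene Eln did not pass in any fit (log2 fold changes -0.27 and 0.33, and -0.74 and -0.19 with the correction). Of 31 proteases and inhibitors 6 rose and 5 fell, with 2 held, both higher, and 3 higher and 4 lower with the correction. Adam15, a membrane-bound metalloprotease, stood at 127, 151 and 143 CPM in C1 to C3 and 230.2, 557, 538 and 383 CPM in Hy1 to Hy4 (log2 fold change 1.60, SE 0.28, adjusted p = 0.00457, and 1.15 with the correction). Adamts4, a proteoglycan-cleaving enzyme, rose from 0.528 ± 0.268 (C, n = 3) to 3.35 ± 2.07 CPM (Hy, n = 4) (log2 fold change 2.65, SE 0.57, adjusted p = 0.00989, and 2.37 with the correction). Among fibroblast lists the held call was Tcf21, a transcription factor of lipid-laden alveolar fibroblasts, at 52.6, 78.2 and 63.2 CPM in C1 to C3 and 232, 239, 136 and 157 CPM in Hy1 to Hy4 (log2 fold change 1.56, SE 0.22, adjusted p = 0.00199, and 1.50 with the correction). It was the only one of 11 alveolar fibroblast genes called, with and without the correction. The adventitial fibroblast (0 rose and 1 fell of 11), mesothelial (2 and 0 of 8) and elastic fibre (1 and 1 of 21) lists had no held call, and with the correction 1 elastic fibre gene was higher and no other gene of the 3 lists was called. Col13a1, Col16a1, Eln, Adamts4 and Tcf21 overlap another gene.

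Epithelial programmes showed few held calls. Of 15 alveolar type 1 genes 3 rose and 5 fell, and only Cldn18, the lung form of this tight junction claudin, held, at 1139, 1262 and 1221 CPM in C1 to C3 and 647, 508, 807 and 500.0 CPM in Hy1 to Hy4 (log2 fold change -0.97, SE 0.18, adjusted p = 0.00579, and -0.87 with the correction). Hy3, at 807 CPM, was closest to C. With the correction 1 type 1 gene was higher and 5 were lower. Without C1, C2, C3, Hy2 or Hy4 1 type 1 gene fell, without Hy1 3 and without Hy3 8, and 0 to 2 rose when any 1 library was left out. In the type 2 list 1 of 13 fell without a held call, 0 passed with the correction, and 7 fell without Hy3. Of 13 club cell genes edgeR called 0, with 2 at an unadjusted p below 0.05, while DESeq2 called 2 higher and 1 lower and limma-voom 0, and edgeR called 3 higher without Hy3. Scgb1a1, the secretory protein of club cells, did not pass at 26107, 29308 and 31071 CPM in C1 to C3 and 94227, 67763, 20979.9 and 80799 CPM in Hy1 to Hy4 (log2 fold change 1.19, SE 0.43, adjusted p = 0.0637, and 0.34 with the correction), and Hy3 lay below all 3 C libraries. Without Hy3 its adjusted p was 0.00102 and with DESeq2 0.0107. Of 25 motile cilia genes edgeR, DESeq2 and limma-voom called 0, with 0 at an unadjusted p below 0.05, but edgeR called 7 higher without Hy3. Foxj1, the master factor of motile cilia, stood at 119.5, 46.1 and 107 CPM in C1 to C3 and 163, 92.9, 45.5 and 204 CPM in Hy1 to Hy4. The ion and water transport list had 2 higher and 1 lower of 14, and the xenobiotic list 1 higher of 25, with no held call (0 higher and 3 lower and 0 higher and 1 lower with the correction).

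Neutrophil genes had the highest list median, yet no member's call held. Of 19 genes 11 rose, 2 passed under the block and 6 with the GC correction. The summed level was 491, 242 and 234 CPM in C1 to C3 and 485, 1910.2, 371 and 3332 CPM in Hy1 to Hy4, so Hy2 and Hy4 were far above C, while Hy1 and Hy3 lay within its range. Without C1, C2 or C3 the count that rose was 4, 1 and 0, without Hy2 or Hy4 it was 4 each time, and without HE1 or HE3 it was 7. Il1b, a cytokine of activated myeloid cells, did hold, at 7.19, 6.99 and 6.14 CPM in C1 to C3 and 24.2, 56.0, 13.1 and 60.0 CPM in Hy1 to Hy4 (log2 fold change 2.50, SE 0.54, adjusted p = 0.0101, and 2.53 with the correction), with the same libraries highest. Socs3, the feedback inhibitor of IL-6 type cytokines, rose from 44.1 ± 8.11 (C, n = 3) to 93.0 ± 20.1 CPM (Hy, n = 4) (log2 fold change 1.08, SE 0.19, adjusted p = 0.00423, and 0.51 with the correction). These were the held calls among 19 IL-6, IL-1 and NF-kB genes, of which 4 rose and 3 fell (2 higher and 0 lower with the correction). Of 36 chemokine genes 2 rose and 2 fell (2 higher and 4 lower with the correction). The 1 held was Ackr1, a chemokine-binding receptor of venules, at low levels of 1.17, 1.11 and 0.625 CPM in C1 to C3 and 0.299, 0.118, 0.0624 and 0.121 CPM in Hy1 to Hy4 (log2 fold change -2.63, SE 0.51, adjusted p = 0.00665, and -2.89 with the correction).

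Lymphoid, dendritic and macrophage lists had few held calls. Of 14 NK cell genes 2 fell, none held, 1 fell with the correction and 6 without Hy1. In the dendritic list, of 14 genes, 3 fell (4 with the correction) and Clec9a held, a receptor of cross-presenting dendritic cells. It stood at 29.3, 40.3 and 34.2 CPM in C1 to C3 and 3.58, 2.59, 0.499 and 1.82 CPM in Hy1 to Hy4 (log2 fold change -4.02, SE 0.45, adjusted p = 0.000573, and -3.79 with the correction) and overlaps another gene, and the HE libraries lay with Hy, at 1.16 to 1.61 CPM. Of 15 T cell genes 2 rose, as many as with the correction, and Zap70, a kinase of the T cell receptor, rose with a held call (log2 fold change 0.96, SE 0.20, adjusted p = 0.0086) that was lost with the correction (0.35, adjusted p = 0.197). The lists of alveolar macrophages (14 genes), interstitial macrophages and monocytes (13), B cells (11), type 2 inflammation (8) and mast cells, basophils and eosinophils (5) hold 48 distinct genes. Of these, edgeR and limma-voom called 0, DESeq2 called 2 higher, and 3 had an unadjusted edgeR p below 0.05. Interferon response genes gave 2 lower of 26 and complement 1 higher and 1 lower of 17 (1 lower in each list with the correction), where Cd59a, a shield against complement, was held, falling from 39.4 ± 2.86 (C, n = 3) to 23.2 ± 3.45 CPM (Hy, n = 4) (log2 fold change -0.76, SE 0.13, adjusted p = 0.004, and -0.57 with the correction).

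Genes of class I antigen presentation moved both ways. Of 13 such genes 6 rose, and B2m and the peptide-trimming enzyme gene Erap1 fell, with 2 and 1 held and 2 and 1 with the GC correction. Tap2, a subunit of the peptide pump, stood at 73.3, 70.8 and 73.7 CPM in C1 to C3 and 126, 166, 144 and 146 CPM in Hy1 to Hy4 (log2 fold change 1.00, SE 0.14, adjusted p = 0.00174, and 0.60 with the correction). Psmb8, an immunoproteasome subunit, rose from 50.2 ± 2.76 (C, n = 3) to 82.9 ± 16.8 CPM (Hy, n = 4) (log2 fold change 0.72, SE 0.15, adjusted p = 0.00937, and 0.55 with the correction). B2m, the light chain, stood at 1284, 1583 and 1416 CPM in C1 to C3 and 705, 651, 554 and 605 CPM in Hy1 to Hy4 (log2 fold change -1.18, SE 0.19, adjusted p = 0.00336, and -1.12 with the correction) and fell in every Hy library below every C library. Of 11 class II genes 3 rose. H2-DMa, which loads class II peptides, rose with a held call (log2 fold change 0.78, SE 0.16, adjusted p = 0.00864) that was lost with the correction (0.48, adjusted p = 0.0882), as were the list's other calls. B2m, H2-DMa, Zap70, Il1b and Ackr1 overlap another gene, and class I genes share sequence with near-identical relatives.

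Blood cell genes gave few calls, and Hba-a1 varied widely within Hy. Hba-a1 stood at 1791, 2939 and 2483 CPM in C1 to C3 and 4232, 7081, 31188 and 559 CPM in Hy1 to Hy4 and did not pass (log2 fold change 2.16, SE 1.04, adjusted p = 0.146, and 1.85 with the correction). Without Hy4 its adjusted p was 0.0487. Of 9 red cell genes 1 rose without a held call and 0 passed with the correction. Gp1bb, a platelet receptor subunit, rose from 1.75 ± 0.76 (C, n = 3) to 8.75 ± 4.23 CPM (Hy, n = 4) (log2 fold change 2.31, SE 0.45, adjusted p = 0.00644, and 1.48 with the correction), overlaps another gene, and was the held one of 2 that rose among 18 platelet genes, where 1 rose with the correction. Of 19 coagulation genes 2 rose and 3 fell, with none held and 0 called with the correction.

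Chaperones, chaperonin subunits, folding enzymes of the endoplasmic reticulum (ER) and amino acid enzymes included more genes that fell than genes that rose, with and without the GC correction. Of 27 cytosolic and mitochondrial chaperone genes 12 fell and 1 rose, against 11% of all genes lower. The calls of 4 lower genes held, 4 fell under the block and 9 with the correction (6.71% of all genes), and the median was -0.76 and -0.81 with it. Without C2, C3 or Hy4, 5, 4 and 6 fell, and without C1, 7. The summed level was 10816 to 13181 CPM in C and 4705 to 8541 CPM in Hy, and the groups did not overlap. Hspd1, the mitochondrial chaperonin HSP60, stood at 210.2, 261 and 228 CPM in C1 to C3 and 100.0, 122, 85.2 and 79.0 CPM in Hy1 to Hy4 (log2 fold change -1.27, SE 0.25, adjusted p = 0.00682, and -1.16 with the correction). Hspa9, the mitochondrial HSP70, stood at 178, 176 and 175 CPM in C1 to C3 and 115, 97.1, 104 and 98.2 CPM in Hy1 to Hy4 (log2 fold change -0.76, SE 0.10, adjusted p = 0.00154, and -0.60 with the correction). Hsp90aa1, the inducible cytosolic HSP90, stood at 1145, 1407 and 1238 CPM in C1 to C3 and 423, 509, 446 and 309 CPM in Hy1 to Hy4 (log2 fold change -1.58, SE 0.35, adjusted p = 0.0111, and -1.35 with the correction). Hspb8, a small heat shock protein, fell from 117 ± 29.7 (C, n = 3) to 61.7 ± 7 CPM (Hy, n = 4) (log2 fold change -0.92, SE 0.19, adjusted p = 0.00825, and -1.10 with the correction). Hsf1, the transcription factor of the heat shock response, moved the other way, from 55.8 ± 3.19 (C, n = 3) to 85.5 ± 9.76 CPM (Hy, n = 4) (log2 fold change 0.62, SE 0.14, adjusted p = 0.0107, and 0.39 with the correction). Hspd1, Hspa9 and Hspb8 overlap another gene. The promoter of Hspd1 is shown for its heat shock element, the letters GAANNTTC. They were found in 6.69% of promoters and 7.73% of genes, and in 7 of 22 chaperone genes with a promoter.
Hspd1 (chr1:55087933-55088182, minus strand): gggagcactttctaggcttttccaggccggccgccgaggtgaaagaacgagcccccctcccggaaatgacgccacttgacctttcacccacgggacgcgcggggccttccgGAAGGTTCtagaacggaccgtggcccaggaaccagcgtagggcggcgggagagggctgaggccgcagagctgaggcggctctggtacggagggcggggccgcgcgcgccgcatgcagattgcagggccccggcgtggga

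Of 13 genes of the chaperonin TRiC and its partner prefoldin, which fold actin and tubulin, 8 fell, 3 with held calls, 4 under the block and 4 with the GC correction. Without C1, C2 or C3, 5, 5 and 4 fell. Vbp1, a prefoldin subunit, stood at 37.0, 39.8 and 38.4 CPM in C1 to C3 and 18.8, 22.1, 21.9 and 17.9 CPM in Hy1 to Hy4 (log2 fold change -0.93, SE 0.11, adjusted p = 0.000826, and -0.51 with the correction). Cct6a fell from 109.7 ± 7.45 (C, n = 3) to 66.8 ± 8.37 CPM (Hy, n = 4) (log2 fold change -0.72, SE 0.12, adjusted p = 0.00371, and -0.62 with the correction), and Cct7 fell with a held call (log2 fold change -0.68, SE 0.15, adjusted p = 0.00978) that was lost with the correction (-0.46, adjusted p = 0.0671). Of 27 ER folding and unfolded protein response genes 8 fell and 1 rose, with 3 held, 4 lower under the block and 8 lower with the correction. Without C2 or C3, 5 and 4 fell. Canx, a lectin chaperone, stood at 325, 347 and 337 CPM in C1 to C3 and 169, 207, 194 and 168 CPM in Hy1 to Hy4 (log2 fold change -0.87, SE 0.14, adjusted p = 0.00281, and -0.55 with the correction). Pdia3, its disulphide isomerase partner, stood at 639.9, 699 and 660.4 CPM in C1 to C3 and 387, 429, 290.0 and 322 CPM in Hy1 to Hy4 (log2 fold change -0.90, SE 0.17, adjusted p = 0.00575, and -0.79 with the correction). Dnajb9, a co-chaperone induced by ER stress, fell from 102 ± 5.05 (C, n = 3) to 53.5 ± 11.7 CPM (Hy, n = 4) (log2 fold change -0.93, SE 0.19, adjusted p = 0.00769, and -0.61 with the correction). Of 25 amino acid synthesis and tRNA charging genes 10 fell and 2 rose, with 1 held, 3 lower under the block and 10 lower with the correction, and 4 fell without C1, C2 or C3. Asns, asparagine synthetase, stood at 38.0, 41.8 and 36.0 CPM in C1 to C3 and 21.4, 19.3, 20.4 and 18.9 CPM in Hy1 to Hy4 (log2 fold change -0.95, SE 0.13, adjusted p = 0.00154, and -0.86 with the correction). The proteasome list had 1 higher and 4 lower of 31, with none held and the same counts with the correction. Cct6a, Cct7 and Pdia3 overlap another gene.

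**Figure D4:**
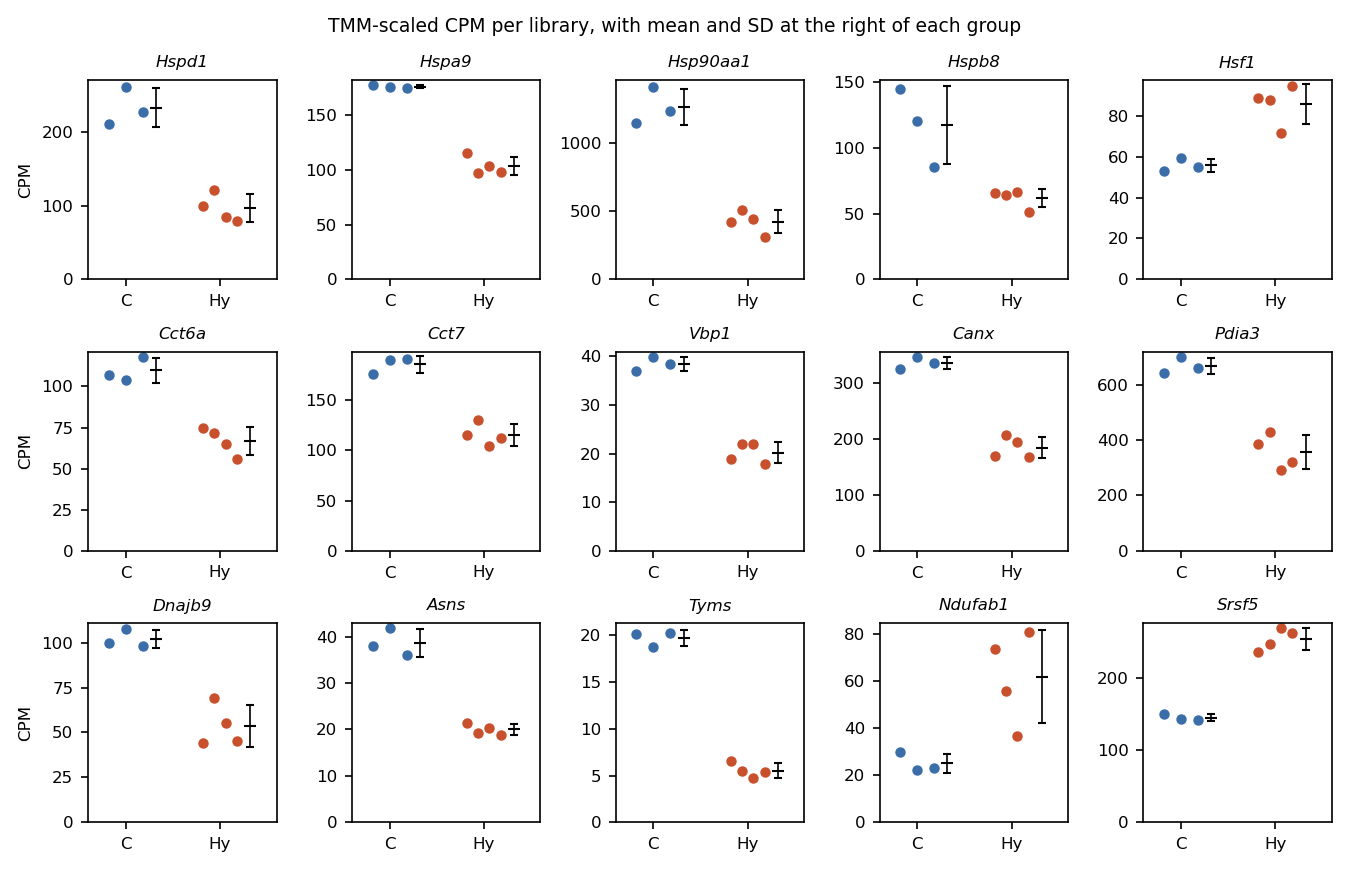
TMM-scaled CPM of 15 named genes of folding, amino acid supply and cell state in each C library (blue) and Hy library (orange), with mean and SD of each group in black and axes from 0. The folding genes are lower in Hy (Hspd1 from 233 to 96.5 CPM on average), whereas Hsf1, Ndufab1 and Srsf5 are higher.

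Many genes for ribosomal proteins and some for respiratory subunits rose, and their counts moved with the GC correction and with Hy3. Of 52 ribosomal protein genes 24 rose and 2 fell, with 7 and 1 held, 8 and 1 under the block and 18 and 4 with the correction. The median went from 0.58 to 0.29, and the list's median transcript length was 1124 bases against 3368 for all genes. The summed level was 15006, 16007 and 15725 CPM in C1 to C3. In Hy1 to Hy4 it was 28068, 24521, 13719.5 and 24049 CPM, so Hy3 lay below every C library. Without C1, C2 or C3, 10, 9 and 9 rose, without Hy2 or Hy4, 14 and 12, and without Hy3, 43. Rps20 stood at 147, 149 and 149 CPM in C1 to C3 and 620.2, 481, 267 and 514 CPM in Hy1 to Hy4 (log2 fold change 1.67, SE 0.25, adjusted p = 0.0022, and 2.01 with the correction) and Rps21 at 122, 119.9 and 118 CPM in C1 to C3 and 551, 448, 202 and 456 CPM in Hy1 to Hy4 (log2 fold change 1.79, SE 0.28, adjusted p = 0.00287, and 1.00 with the correction), with Hy3 the lowest Hy library in each. Rpl38 rose with a held call (log2 fold change 1.69, SE 0.24, adjusted p = 0.00205) that was lost with the correction (0.42, adjusted p = 0.122). Rps6, at 25.9, 24.4 and 16.99 CPM in C1 to C3 and 2.75, 4.13, 1.5 and 1.7 CPM in Hy1 to Hy4 (log2 fold change -3.15, SE 0.58, adjusted p = 0.00542, and -3.84 with the correction), fell, and Rpl34 rose from 2.62 ± 0.249 (C, n = 3) to 12.6 ± 3.01 CPM (Hy, n = 4) (log2 fold change 2.27, SE 0.22, adjusted p = 0.000286, and 1.81 with the correction). Ribosomal protein genes have near-identical processed copies, so their counts are uncertain, and Rps20 and Rps21 also overlap another gene.

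Of 37 complex I subunits 10 rose, with 3 held and 5 under the block. With the GC correction 9 were higher and 6 lower, and the median of 0.45 became -0.02. Without C2, C3 or Hy3 the count higher was 4, 3 and 24. The summed level was 1333 to 1575 CPM in C and 1920 to 2330 CPM in Hy1, Hy2 and Hy4. Hy3, at 1283 CPM, lay below every C library. Ndufab1, an acyl carrier subunit, stood at 29.8, 22.4 and 23.1 CPM in C1 to C3 and 73.6, 56.0, 36.6 and 81.1 CPM in Hy1 to Hy4 (log2 fold change 1.30, SE 0.24, adjusted p = 0.00569, and 1.50 with the correction). Ndufb8 and Ndufv3 had log2 fold changes of 1.06 and 0.93 (1.16 and 0.81 with the correction). Of 34 subunits of complexes II to V 3 rose and 2 fell, with 3 held higher, and the correction gave 2 higher and 7 lower. Without Hy3, 17 rose. Their summed level was 3094 to 3760 CPM in C, 3769 to 4382 CPM in Hy1, Hy2 and Hy4, and 2820 CPM in Hy3. Cox5b, of cytochrome oxidase, rose from 41.5 ± 7.6 (C, n = 3) to 84.8 ± 23.1 CPM (Hy, n = 4) (log2 fold change 1.03, SE 0.22, adjusted p = 0.00978, and 0.77 with the correction). Uqcr11 rose with a held call (log2 fold change 1.49, SE 0.31, adjusted p = 0.00895) that was lost with the correction (0.33, adjusted p = 0.0853), and Atp5d rose with a held call (log2 fold change 0.88, SE 0.16, adjusted p = 0.00536) that was lost with the correction (0.22, adjusted p = 0.126). Of 21 genes of the TCA cycle and pyruvate dehydrogenase 5 fell, with 1 held and 2 lower with the correction. Dld, a shared subunit of the dehydrogenase complexes, fell from 57.6 ± 4.1 (C, n = 3) to 37.6 ± 1.64 CPM (Hy, n = 4) (log2 fold change -0.61, SE 0.10, adjusted p = 0.00336, and -0.30 with the correction). Fatty acid oxidation had 2 lower of 23 and sterol and fatty acid synthesis 2 higher and 1 lower of 30, with none held (0 higher and 2 lower and 0 higher and 0 lower with the correction).

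Immediate early genes, switched on within minutes of a stimulus, were called in 1 direction. Of 23 genes 8 rose and 15 did not pass, with 6 held, 7 under the block and 4 with the GC correction. Of all genes 15.1% rose, and 6.76% with the correction. The list median went from 0.95 to 0.52 with the correction. The list's median transcript GC content was 54.1%, within a decile where 20.9% of genes were called higher and 1.71% lower. Junb stood at 53.0, 51.6 and 54.1 CPM in C1 to C3 and 205, 252, 137 and 364 CPM in Hy1 to Hy4 (log2 fold change 2.18, SE 0.30, adjusted p = 0.00174, and 1.27 with the correction) and Klf4 at 135, 117 and 128 CPM in C1 to C3 and 356, 334, 337 and 254 CPM in Hy1 to Hy4 (log2 fold change 1.34, SE 0.20, adjusted p = 0.00238, and 1.07 with the correction). In both genes every Hy library was above every C library. Jun and Ier5 had log2 fold changes of 0.97 and 1.52 (0.63 and 1.35 with the correction), and Jund rose with a held call (log2 fold change 1.76, SE 0.21, adjusted p = 0.000836) that was lost with the correction (0.51, adjusted p = 0.086). The clock list had 1 higher and 4 lower of 21 and the glucocorticoid-responsive list 2 lower of 18, and no call held (1 higher and 1 lower and 0 higher and 1 lower with the correction).

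Translation factors and splicing factors moved gene by gene. Of 27 translation factors 8 fell and 1 rose, with 3 and 1 held, and the GC correction gave 3 higher and 3 lower. Eif4a1, the helicase of the cap-binding complex, fell from 271 ± 9.79 (C, n = 3) to 174 ± 22.8 CPM (Hy, n = 4) (log2 fold change -0.64, SE 0.12, adjusted p = 0.00624, and -0.49 with the correction), Eif5b fell with a held call (log2 fold change -0.57, SE 0.11, adjusted p = 0.00634) that was lost with the correction (-0.24, adjusted p = 0.174), and Eif1ax, a start-codon factor, rose from 32.7 ± 2.44 (C, n = 3) to 51.1 ± 3.79 CPM (Hy, n = 4) (log2 fold change 0.64, SE 0.11, adjusted p = 0.00346, and 1.06 with the correction). Of 36 splicing factors 4 rose and 4 fell, with 2 and 3 held, and 7 and 2 passed with the correction. Srsf5 stood at 151, 144 and 142 CPM in C1 to C3 and 236, 247, 270.2 and 263 CPM in Hy1 to Hy4 (log2 fold change 0.80, SE 0.12, adjusted p = 0.00206, and 1.16 with the correction), and Srsf2 rose from 204 ± 3.41 (C, n = 3) to 319 ± 46.1 CPM (Hy, n = 4) (log2 fold change 0.65, SE 0.14, adjusted p = 0.0103, and 0.60 with the correction). Hnrnpa3 and Son fell, with log2 fold changes of -0.84 and -0.76 (-0.45 and -0.61 with the correction). Eif4a1, Eif5b, Srsf2 and Son overlap another gene.

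Of 30 cell cycle genes 3 fell (2 with the correction). Tyms, thymidylate synthase, was the 1 held, at 20.1, 18.7 and 20.2 CPM in C1 to C3 and 6.57, 5.48, 4.74 and 5.33 CPM in Hy1 to Hy4 (log2 fold change -1.83, SE 0.15, adjusted p = 0.000108, and -1.67 with the correction), while the proliferation marker Mki67 did not pass in any fit (log2 fold change 0.33, SE 0.40, adjusted p = 0.57, and 0.52 with the correction). Of 24 antioxidant and NRF2 target genes 4 rose and 3 fell, 0 passed with the correction, and the held one, Keap1, the sensor that restrains NRF2, rose with a held call (log2 fold change 0.55, SE 0.10, adjusted p = 0.00455) that was lost with the correction (0.08, adjusted p = 0.514). Of 25 autophagy and lysosome genes 3 rose and 2 fell (0 higher and 3 lower with the correction). Lamp2, a lysosomal membrane protein that overlaps another gene, was held and fell from 345 ± 9.12 (C, n = 3) to 209 ± 23.8 CPM (Hy, n = 4) (log2 fold change -0.72, SE 0.12, adjusted p = 0.00338, and -0.34 with the correction). The cold-inducible list had 1 higher of 4, also with the correction, without a held call.

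Tissue carried along with the lung gave no calls that held. Of 16 cardiomyocyte and 7 skeletal muscle genes edgeR, DESeq2 and limma-voom called 0, with 0 at an unadjusted p below 0.05. Of 11 adipocyte genes 1 fell and 0 passed with the correction, with a summed level of 862 CPM in C1 and 80.0 to 233 CPM in the other 6.

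Single genes of large fold were also named from all genes, whatever their list. At least 2-fold differences were fitted for 1678 genes, of which 803 were called higher and 331 lower. Of 52 genes past 32-fold, 57.7% overlapped another gene, against 46.9% of all tested. Candidates were held genes under that limit that overlap no other gene, average at least 5 CPM and have C and Hy libraries that do not overlap. Ribosomal protein genes, pseudogenes and genes with Gm, LOC, Rik or numeric names were left out, among them Rps6 (log2 fold change -3.15). The candidates of greatest fold were Uprt, Cystm1, Uhmk1, Rel, H2-Q6 and Zfp369 higher and Zfp488, Olfr613, Gtpbp8, Dpy19l4 and Zfp65 lower, besides Tyms. Cystm1, a small membrane protein gene, stood at 16.6, 15.5 and 15.3 CPM in C1 to C3 and 135, 122, 108 and 142 CPM in Hy1 to Hy4 (log2 fold change 3.00, SE 0.13, adjusted p = 9.91e-07, and 3.18 with the correction). Zfp488, a zinc finger gene, stood at 182, 221 and 212 CPM in C1 to C3 and 8.54, 9.14, 16.2 and 7.03 CPM in Hy1 to Hy4 (log2 fold change -4.33, SE 0.25, adjusted p = 7.79e-06, and -4.24 with the correction). In both, the libraries of a group lay close together and the groups far apart. The HE libraries, tabulated as Hy was, lay at 131 to 149 CPM for Cystm1 and at 6.06 to 7.07 CPM for Zfp488. Rel, an NF-kB subunit, rose from 2.26 ± 0.528 (C, n = 3) to 15.4 ± 5.59 CPM (Hy, n = 4) (log2 fold change 2.76, SE 0.30, adjusted p = 0.00053, and 3.08 with the correction), with HE at 9.63 to 12.9 CPM. Olfr613, an olfactory receptor gene, fell from 33.7 ± 4.03 (C, n = 3) to 2.09 ± 0.819 CPM (Hy, n = 4) (log2 fold change -4.00, SE 0.35, adjusted p = 0.000139, and -3.55 with the correction), with HE at 0.909 to 2.24 CPM. Uprt, Uhmk1, H2-Q6 and Zfp369 had log2 fold changes of 3.84, 2.77, 2.69 and 2.52, and Gtpbp8, Dpy19l4 and Zfp65 of -2.22, -2.09 and -1.99. With the correction they were 4.10, 3.03, 2.37 and 2.85, and -2.01, -1.68 and -1.60. The part of the separate tabulation of C in these folds cannot be told apart from the condition.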

How the data were processed

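Messenger RNA of lung was selected with oligo(dT) and sequenced, per the labels' protocols. The authors deposited estimated counts per gene, not normalised. RSEM 1.2.12, HISAT2 2.0.4, DESeq 1.4.5 and Bowtie2 2.2.5 and the build GRCm38.p6 are named, without roles, per the submitters' processing notes. The annotation release is not given in the sources used here.

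Counts were rounded to whole numbers. Symbols and spans came from RefSeq (GRCm38.p6), where 17445 of the 17465 genes matched. One edgeR 4.0.16 fit in R 4.3.3 took in the 3 groups (quasi-likelihood, TMM factors, Benjamini-Hochberg adjustment). A change of groups, filter, scaling or tool (DESeq2 1.42.0, limma 3.58.1 voom) was an alternative. Counting error is small at these depths, except for genes with very few counts in a group. The GC correction, added after seeing the data, uses each library's spline on GC content and length of GENCODE M21 transcripts, known for 98.3% of genes.

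Members and lists were chosen with earlier results of these data known. Named by rule were up to 3 held members per list with the smallest p and a mean of at least 2 CPM, 6 genes per direction of greatest fold (at least 5 CPM, under 32-fold, overlapping no gene), Bmpr2, Ednrb, Scgb1a1 and Hba-a1. The genes of greatest fold also had held calls and groups that did not overlap. Ribosomal protein genes, pseudogenes and genes with Gm, LOC, Rik or numeric names were left out of them. Another 25 were chosen after their values were seen. Those are Tgfbr1, Tfrc, Ece2, Lmod1, Myl9, Tagln, Hsp90aa1, Hsf1, Rps6, Rps21, Jun, Ier5, Ackr1, Srsf2, Vegfa, Epas1, Hif1an, Acvrl1, Eng, Pecam1, Col1a1, Eln, Sftpb, Foxj1 and Mki67. Hk2, Erap1, Hif1a, Vhl, Adm, Ankrd37 and Mxi1 are named without values, also after their calls were seen. So are Col1a2, Col3a1, Col4a5, Col5a2, Pdgfrb, Kcnj8, Notch3 and Heyl. Same-numbered C and Hy libraries shared deviations across genes (correlations 0.12, 0.25 and 0.13, each above the criterion of 0.1), so the number was treated as pairing, although no label states it, and C1 and C2 correlated best with libraries of another number (C1 at 0.45 with Hy4, C2 at 0.27 with Hy3). The block fits Hy4 exactly, since no other library has its number. The fits were tested on simulated counts.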

Additional observations from a re-analysis of the deposited data

Results flagged for a closer look

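Among the 111 named genes, a single Hy library stood apart from the other 3 in 8, where the gap to the nearest library, as a share of the group's range, exceeded Dixon's 95% critical value, and chance flags about 1 in 20 groups. In Hy3 the level was high for Lrp6 (83.8 CPM), Adamts4 (6.43 CPM), Uprt (24.1 CPM), Rel (23.7 CPM), Dpy19l4 (13.1 CPM) and Epas1 (6353 CPM). Hy3 lay closer to C than the other Hy libraries for Lrp6 and Dpy19l4, and farther from C for Adamts4, Uprt, Rel and Epas1. Col13a1 was low in Hy1 (196 CPM) and Hspb8 was low in Hy4 (51.3 CPM). The cause was not tested.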

How the results depend on the processing

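The counts of genes higher and lower (2225 and 1625) stayed within 1.5 times with RLE factors, no filter, a minimum of 1 CPM in 3 libraries, DESeq2 and limma-voom. Scaling by library totals gave 1591 and 2740, so the share of calls that were higher went from 57.8% to 36.7% and the median of all genes shifted by -0.14, and all 98 held named calls passed there in the same direction. Only C and Hy gave 1631 and 1058, the replicate block 1112 and 633, genes that overlap no other gene 1183 and 887, the fit without C1, Hy4 and HE3 226 and 134, the fit without Hy2 and Hy4 683 and 387, the GC correction 986 and 979, and the correction with the replicate block 356 and 233. With each library left out in turn the counts ran from 1023 to 3175 higher and from 607 to 2798 lower. The replicate block changed no call named as held, since passing it is part of that rule. Egln2 reversed with the GC correction (-0.074) and with the correction and the block (-0.062). Fewer libraries give less power, so a call lost in a fit of fewer of them need not mean a smaller change. Of the 98 held named calls 72 passed without Hy2 and Hy4 and 47 with the correction and the block. The count of members called in a list moved by more than 1.5 times in 1154 of 3496 combinations of list, direction and setting. Depth is unlikely to limit most named genes but does limit Ece2 and Ackr1, which are below 4 CPM in every library. It also limits the folds of genes with few counts in a group. Examples are Adamts4 (0.349 to 0.836 CPM in C), Uprt (0.682 to 1.34 CPM in C), Gp1bb (0.892 CPM in C1) and Clec9a (0.499 CPM in Hy3).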
